A study of Canis lupus familiaris with 18 samples.

Results

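The genes described here are the PTP4A phosphatases PTP4A1, PTP4A2 and PTP4A3, the MAP kinase phosphatases DUSP1, DUSP5, DUSP6 and DUSP10, and the cell cycle phosphatases CDC25B and CDC25C, measured by RNASeq in canine high grade oligodendroglioma (HGO). They were chosen by name, 10 genes in all with DUSP4, and 9 of the 10 were found among the 29993 genes counted. DUSP4 was not analysed here. PTP4A1 was included because its level was higher in French bulldogs, so its difference between the breeds is described below without a test. Its counts are those listed under the identifier ENSCAFG00000002490, which carries no symbol in the counts and was named in the study through homology. In a further listing of the study the same identifier has the gene type of a small nucleolar RNA. Which gene the reads came from was not tested here, so every PTP4A1 value below is a value of this identifier.

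The 18 libraries came from formalin-fixed, paraffin-embedded tumor tissue, 11 from French bulldogs and 7 from other dogs, 4 boxers and 3 Boston terriers, which together form the comparison group. All were pet dogs with HGO of the forebrain, and the tissue was removed at surgery before the dogs received any trial treatment. Normal brain of these breeds was not analysed here, so a difference between tumors and a difference between breeds that is unrelated to the tumor cannot be told apart. Each library is whole tumor tissue, in which fewer cells of a type and less RNA per cell cannot be told apart.

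Dual-specificity phosphatases remove phosphate from tyrosine and from serine or threonine. PTP4A phosphatases, also called phosphatases of regenerating liver, are small enzymes anchored to membranes by a lipid group, and they bind the CNNM magnesium transport mediators. MAP kinase phosphatases switch off ERK, JNK and p38 kinases, and several are themselves induced by the signal they end. CDC25 phosphatases activate cyclin-dependent kinases by removing inhibitory phosphates. In glioma, ERK signaling downstream of growth factor receptors and entry into mitosis are both commonly raised.

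Levels are given as normalized CPM, the counts scaled by library size and by edgeR's TMM factor. They compare libraries for 1 gene, not 1 gene with another, since gene length was not used. Total counts ranged from 8212452 to 13169880 per library, and 3 counts, taken as the smallest level the depth could show, equalled 0.228 to 0.365 CPM before TMM scaling, for counting error only. French bulldog 6 stood apart from the other libraries. It had 0 counts of OLIG2 and 2 of SOX10, which define the oligodendrocyte lineage, against 1137 to 3371 and 1986 to 4972 elsewhere, and 27819 counts of CD163 and 7800 of PTPRC, markers of macrophages and of leukocytes, against 22 to 521 and 77 to 516. The fold changes of the phosphatases and the counts of the gene lists are therefore also given without it where it moved them. French bulldogs 2 and 8 share a case number in the labels, and they were the most alike of the 64 pairs of libraries of 1 breed, although they differed by more than sampling noise (chi-square per degree of freedom of 8.72, next pair 27.9). They may come from 1 dog, so n = 11 counts libraries and not dogs, and the p-values below measure the spread between these libraries. With both summed as 1, the log2 fold change of PTP4A1 was 0.88 and that of PTP4A2 0.46.

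PTP4A1 was higher in French bulldogs. Its lowest, median and highest levels were 30.6, 42.9 and 75.6 CPM in the 11 French bulldogs. The 4 boxers had 23.0, 40.9, 25.4 and 24.4 CPM, and the 3 Boston terriers had 29.1, 18.6 and 19.96 CPM. Every French bulldog lay above the median of the comparison group, and 8 of 11 lay above all 7 of its libraries. French bulldogs 3, 4 and 7 did not, and the overlap came from boxer 3 alone, since the other 6 comparison libraries were lower than every French bulldog. Means were 47.4 ± 12.8 CPM (SD, n = 11) and 25.9 ± 7.47 CPM (SD, n = 7), a fitted log2 fold change of 0.87 with a standard error of 0.19. The highest level of all libraries was that of French bulldog 6, and without it the log2 fold change was 0.81. Against boxers alone it was 0.74, and against Boston terriers alone 1.09. In the labels the comparison libraries carry library numbers of 2 runs of numbers, S18 to S21 and S1 to S3, and the log2 fold change was 0.68 against the first and 1.19 against the second.

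PTP4A2 (ENSCAFG00000051663), the close paralog of PTP4A1, had levels of 113 CPM at the lowest, 143 at the median and 294 at the highest in French bulldogs. The boxers had 110, 128, 117 and 103 CPM, and the Boston terriers had 126, 118 and 127 CPM. The 7 comparison libraries thus lay close together, with a coefficient of variation of 8.06%, against 33.5% in French bulldogs and 25.6% in the 10 French bulldogs without number 6. French bulldogs 6, 8 and 2 were the highest, at 294, 233 and 208 CPM, and 8 of 11 French bulldogs were above every comparison library. Means were 168 ± 56.2 CPM (SD, n = 11) and 118 ± 9.54 CPM (SD, n = 7), and the log2 fold change of 0.50 (SE 0.19) was not past the threshold of 0.05 after adjustment (edgeR's quasi-likelihood F test, Benjamini-Hochberg adjusted p = 0.433). Without French bulldog 6 it was 0.41 (SE 0.15, edgeR adjusted p = 0.387). Reads of PTP4A1 and PTP4A2 that fit both genes may have been counted for either or for neither, since the handling of such reads is not given in the sources used here.

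PTP4A3 (ENSCAFG00000001237), the third member of the family, showed the opposite order of means. Its levels in French bulldogs were 0.312 CPM at the lowest, 10.5 at the median and 22.5 at the highest, with a mean of 11.7 ± 7.94 CPM (SD, n = 11). The boxers had 14.4, 18.2, 8.30 and 23.7 CPM, the Boston terriers had 25.5, 8.70 and 20.8 CPM, and the mean of the 7 was 17.1 ± 6.88 CPM (SD). The groups overlapped over most of their range, and French bulldogs 6, 9 and 11 alone lay below all comparison libraries. French bulldog 6 had 3 counts, at the limit of the depth, and French bulldog 9 had 1.70 CPM. The log2 fold change was -0.55 (SE 0.53, edgeR adjusted p = 0.732), and -0.39 without French bulldog 6. By limma-voom it was -1.07.

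**Figure D1:**
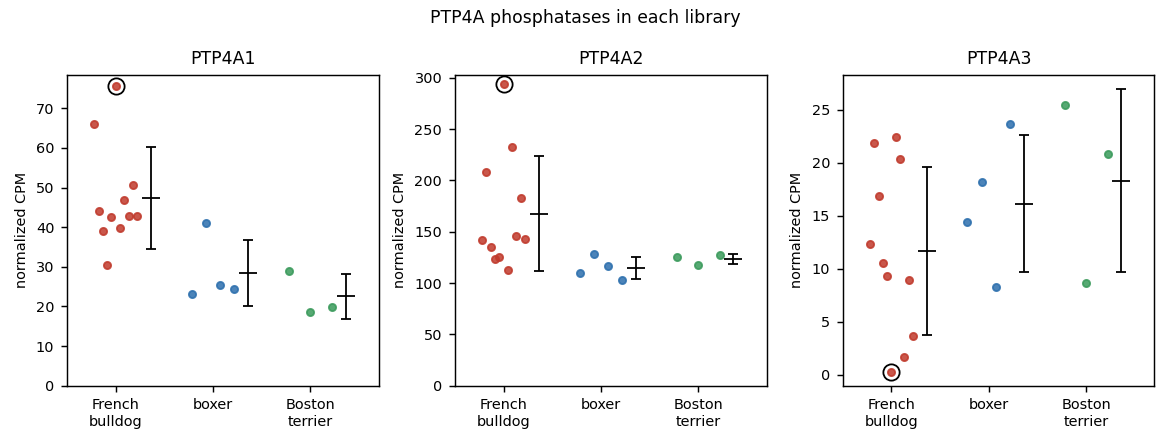
Normalized CPM (vertical axis) of PTP4A1, PTP4A2 and PTP4A3 in each library of the 3 breeds; each point is 1 library, the dash with bars is the mean ± SD of a breed, and the black circle marks French bulldog 6. PTP4A1 and PTP4A2 are highest in French bulldog 6 at 75.6 and 294 CPM, where PTP4A3 is lowest at 0.312 CPM, and boxer 3 at 40.9 CPM is the single comparison library within the French bulldog range of PTP4A1.

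Of the 8 genes other than PTP4A1, 0 had an adjusted p-value under 0.05 in French bulldogs against the comparison group by edgeR's quasi-likelihood F test, where 1 of all 16495 genes tested did (0.00606%). PTP4A2 was the 1 of the 8 with an unadjusted p-value under 0.05 (p = 0.0141 by edgeR), against 10.6% of all genes tested. By the DESeq2 Wald test 0 of the 8 passed after adjustment, against 0.213% of the 27192 genes it tested, and DUSP5 and DUSP10 joined PTP4A2 with an unadjusted p-value under 0.05, against 9.62%. Without French bulldog 6 the count by edgeR was again 0. The log2 fold change was above 0 for 6 of the 8 and below 0 for PTP4A3 and DUSP6. Its median over the 8 genes was 0.41, and over all genes tested 0.04. Without French bulldog 6 the values of PTP4A2, DUSP1, DUSP5, DUSP10, CDC25B and CDC25C were 0.41, 0.06, 0.99, 0.66, 0.24 and 0.16. Those of PTP4A3 and DUSP6 were then -0.39 and -0.43, and the median over all genes tested was 0.05. The 2 groups of libraries overlapped for each of the 8, and were apart for 0.00606% of all genes tested with French bulldogs higher and for 0.0485% with French bulldogs lower.

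DUSP1 (ENSCAFG00000029826), a nuclear phosphatase of JNK, p38 and ERK that cells induce within minutes of stress or growth signals, varied over a wide range in French bulldogs. Its lowest, median and highest levels there were 15.9, 26.8 and 233 CPM, and the highest was French bulldog 6, which held 39.0% of the sum over the 11. French bulldogs 11 and 7 followed with 99.0 and 69.7 CPM. The boxers had 39.8, 37.7, 25.9 and 41.0 CPM, and the Boston terriers had 25.2, 48.0 and 33.7 CPM. In French bulldogs 3 libraries thus lay above all comparison libraries, 4 below all of them and 4 between. Means were 54.3 ± 64.6 CPM (SD, n = 11) and 35.9 ± 8.25 CPM (SD, n = 7). The log2 fold change of 0.60 (SE 0.51, edgeR adjusted p = 0.686) rested on French bulldog 6, and it was 0.06 (SE 0.35, edgeR adjusted p = 0.970) without it, when the French bulldog mean was 36.4 ± 27.0 CPM (SD, n = 10). By limma-voom with all libraries it was 0.05. In the reference annotation, of another assembly, DUSP1 overlaps the uncharacterised gene LOC111095540. The strand setting of the counting is not given in the sources used here, so whether reads of the pair were told apart is not known.

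DUSP5 (ENSCAFG00000030565), a nuclear phosphatase of ERK, had the largest log2 fold change of the 9 in the edgeR fit of all 18 libraries, and its counts were low. French bulldogs had 9 to 199 counts, with levels of 0.839, 1.56 and 19.7 CPM at the lowest, the median and the highest. The boxers had 3.41, 3.29, 1.14 and 3.35 CPM, and the Boston terriers had 2.07, 2.84 and 1.33 CPM. French bulldogs 11, 6, 7, 10 and 3, from 19.7 down to 4.39 CPM, were above every comparison library, while the other 6 lay from 0.839 to 1.56 CPM. Means were 5.62 ± 6.33 CPM (SD, n = 11) and 2.49 ± 0.974 CPM (SD, n = 7), with a log2 fold change of 1.17 (SE 0.64, edgeR adjusted p = 0.517). It was 0.75 without French bulldog 11, 0.99 without French bulldog 6 and 0.44 by limma-voom. PTP4A1 was larger than DUSP5 without French bulldog 11, at 0.88, and by limma-voom, at 0.87.

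DUSP6 (ENSCAFG00000006100), the cytoplasmic phosphatase of ERK and a feedback gene of that pathway, was lower in boxers than in Boston terriers in every library. The boxers had 74.8, 107, 46.7 and 123 CPM, with a mean of 87.9 ± 34.0 CPM (SD, n = 4). The Boston terriers had 132, 189 and 211 CPM, with a mean of 177 ± 40.8 CPM (SD, n = 3). All 4 boxers thus lay below all 3 Boston terriers, as they did for 3.54% of the genes tested in this comparison. French bulldogs had 30.5, 93.6 and 159 CPM at the lowest, the median and the highest and a mean of 95.8 ± 34.3 CPM (SD, n = 11), so their range covered the 4 boxers and the lowest Boston terrier, and the other 2 Boston terriers lay above it. The log2 fold change of boxers over Boston terriers was -1.01 (SE 0.41, unadjusted p = 0.0250 and adjusted p = 1 by edgeR). For French bulldogs against both breeds together it was -0.40 (SE 0.29, edgeR adjusted p = 0.630), and -0.22 without Boston terrier 7. Its sign turned with the breed compared, at 0.13 (SE 0.33) against boxers alone and -0.89 against Boston terriers alone (unadjusted p = 0.0152, adjusted p = 1.00 by edgeR). By library numbers it was 0.09 against S18 to S21 and -0.86 against S1 to S3. The S18 to S21 libraries hold 3 of the 4 boxers and the S1 to S3 libraries 2 of the 3 Boston terriers, so breed and library number are partly confounded, and their parts in these values were not tested.

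DUSP10 (ENSCAFG00000013641), a phosphatase of JNK and p38, ranged from 4.39 over a median of 13.0 to 24.6 CPM in French bulldogs. The boxers had 5.91, 9.78, 15.1 and 8.65 CPM, and the Boston terriers had 9.41, 9.37 and 6.05 CPM. French bulldogs 10, 2, 11, 9 and 8 were above every comparison library, and French bulldog 1 was below all of them. Means were 14.1 ± 6.76 CPM (SD, n = 11) and 9.17 ± 3.05 CPM (SD, n = 7), with a log2 fold change of 0.62 (SE 0.32, edgeR adjusted p = 0.494), and 0.66 without French bulldog 6. In the reference annotation DUSP10 overlaps LOC111094505, with the same limit as for DUSP1.

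CDC25B (ENSCAFG00000006175), which activates cyclin-dependent kinases at the start of mitosis, was at 5.25, 17.3 and 26.5 CPM at the lowest, the median and the highest in French bulldogs. The boxers had 9.92, 8.59, 11.8 and 16.1 CPM, and the Boston terriers had 10.3, 16.8 and 15.7 CPM. French bulldogs lay on both sides of the comparison group, 6 above all of it and 2 below. The highest were numbers 6, 2 and 8, and the lowest was number 11. Means were 15.9 ± 7.38 CPM (SD, n = 11) and 12.7 ± 3.38 CPM (SD, n = 7), with a log2 fold change of 0.32 (SE 0.29, edgeR adjusted p = 0.711), 0.24 without French bulldog 6 and 0.18 by limma-voom. By library numbers it was 0.65 (SE 0.38) against S18 to S21 and -0.02 (SE 0.41) against S1 to S3.

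CDC25C (ENSCAFG00000001220), which acts on the mitotic kinase CDK1, was low in all groups, at 11 to 92 counts in French bulldogs and 15 to 66 in the comparison group. French bulldogs had 1.09, 3.97 and 7.19 CPM at the lowest, the median and the highest. The boxers had 2.20, 1.37, 4.20 and 7.13 CPM, and the Boston terriers had 2.45, 1.59 and 5.22 CPM. The groups overlapped almost entirely, with means of 4.11 ± 1.96 CPM (SD, n = 11) and 3.45 ± 2.14 CPM (SD, n = 7). The log2 fold change was 0.25 (SE 0.39, edgeR adjusted p = 0.855). By library numbers it was 0.69 (SE 0.45) against S18 to S21 and -0.17 (SE 0.52) against S1 to S3. It was 0.12 without boxer 3 and 0.53 without boxer 5, and 0.16 without French bulldog 6. In the reference annotation CDC25C overlaps SLBP2 and FAM53C, again with the same limit.

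**Figure D2:**
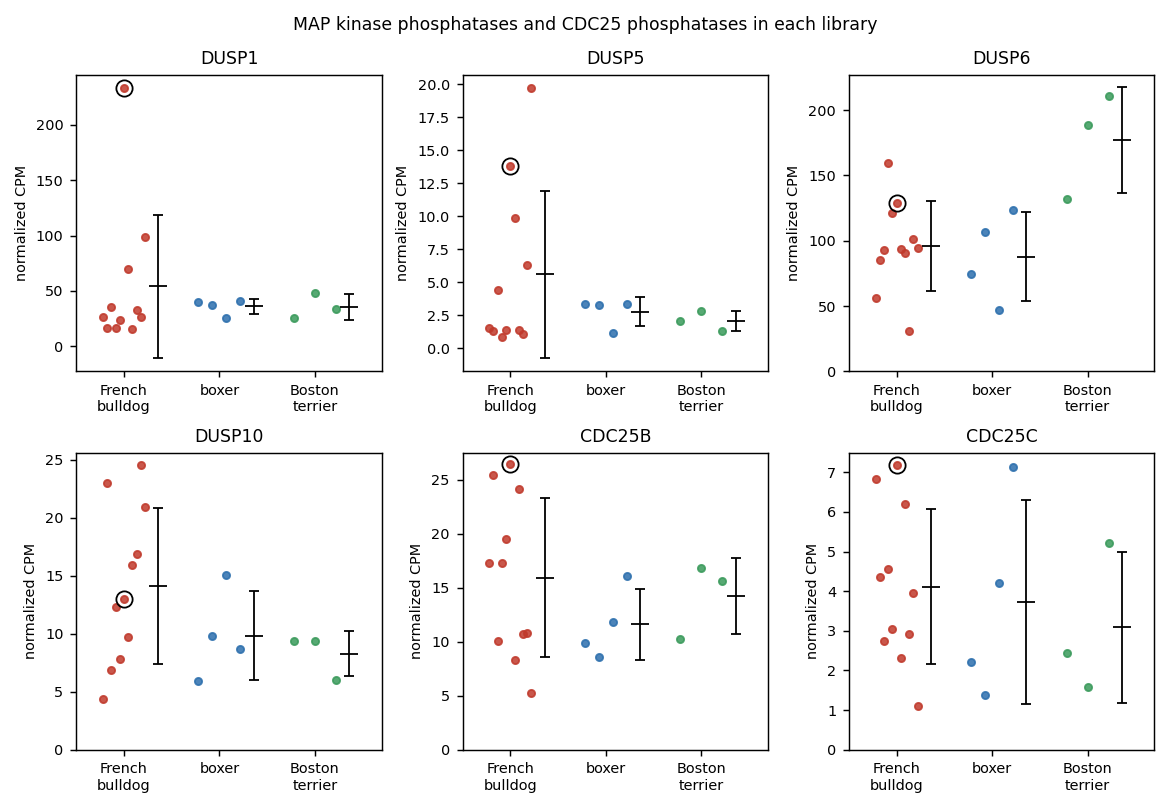
Normalized CPM (vertical axis) of DUSP1, DUSP5, DUSP6, DUSP10, CDC25B and CDC25C in each library of the 3 breeds; each point is 1 library, the dash with bars is the mean ± SD of a breed, and the black circle marks French bulldog 6. The SD bars of DUSP1 and DUSP5 in French bulldogs reach below 0, which no level does, and for DUSP6 the Boston terriers at 132 to 211 CPM sit above the boxers at 46.7 to 123 CPM.

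Boxers and Boston terriers, which the study pooled, were also compared with each other for the 9 genes, a contrast that played no part in choosing them. Of the 9 genes 0 had an adjusted p-value under 0.05 by edgeR, as did 0 of the 17934 genes tested (0%), and DUSP6 alone had an unadjusted p-value under 0.05, against 2.12% of all genes tested, 1.11% with boxers higher and 1.01% with boxers lower. The share of all genes was 3.57% without French bulldog 6 and 6.23% with the 7 libraries alone in the fit, and DUSP6 was again the 1 gene of the 9. Its unadjusted p was 0.0568 without boxer 1, 0.0628 without boxer 4, 0.0559 without Boston terrier 6 and 0.0821 without Boston terrier 7 by edgeR, so its pass rests on each of these libraries. For the genes other than DUSP6 the breeds overlapped, and boxers were above all Boston terriers for 3.71% of the genes tested. By the DESeq2 Wald test the adjusted count was 0 as well. PTP4A1 was at 28.4 ± 8.39 CPM (SD, n = 4) in boxers and 22.6 ± 5.68 CPM (SD, n = 3) in Boston terriers, a log2 fold change of 0.33 (SE 0.30, edgeR adjusted p = 1), which was 0.10 without boxer 3 and 0.55 without Boston terrier 2. That of PTP4A2 was -0.11 (SE 0.30), and those of the remaining genes lay between -0.30 for CDC25B and 0.42 for DUSP5, each smaller than its standard error in this fit. The standard errors of DUSP5, PTP4A3 and DUSP1 were 1.01, 0.86 and 0.80 in this fit, in which the French bulldogs share in the estimate of the spread, and 0.53, 0.43 and 0.26 with the 7 libraries of the 2 breeds alone in the fit. That of DUSP1 was 0.55 without French bulldog 6.

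**Figure D3:**
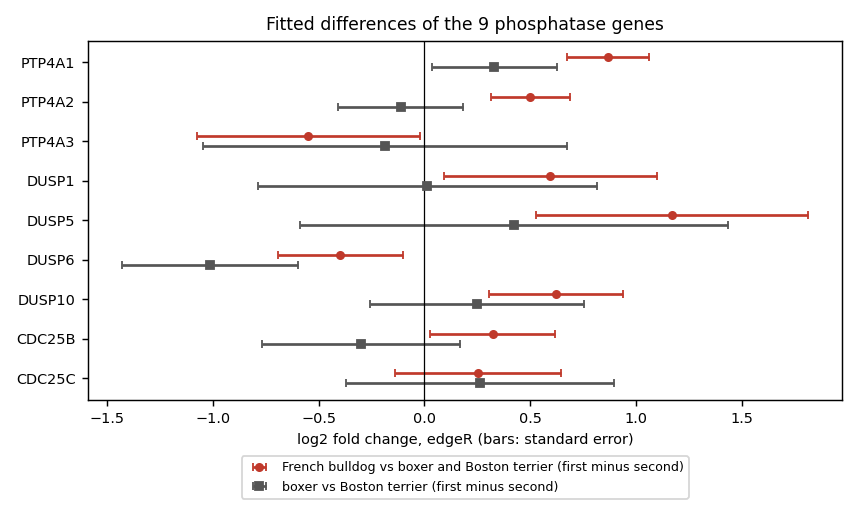
Log2 fold changes (horizontal axis) of the 9 genes from the edgeR fits, with bars of 1 standard error, for French bulldogs against boxers and Boston terriers (circles) and for boxers against Boston terriers (squares). PTP4A1, chosen for the first contrast, is at 0.87, DUSP5 has the largest value at 1.17 with a standard error of 0.64, and DUSP6 has the largest difference between boxers and Boston terriers at -1.01.

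How the genes varied across tumors was examined on log2 CPM (prior count 2) over 16 units, with French bulldog 6 left out and French bulldogs 2 and 8 summed. Each of 11 relations set a gene beside the mean z-score of a list of genes with a known tie to it, and p-values came from 100000 permutations, two-sided, adjusted over the 11. A relation was called where both Pearson's r and Spearman's rho had an adjusted p-value under 0.05, and 3 were.

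DUSP1 rose with 10 immediate-early genes, among them FOS, JUN and EGR1, transcription factors induced at once by stress and growth signals. Pearson's r was 0.86 (permutation p = 2e-05, adjusted p = 0.00022) and Spearman's rho 0.74 (permutation p = 0.00121, adjusted p = 0.00444). Within the 9 French bulldog units r was 0.87 (exact permutation p = 0.00835) and rho 0.35, and within the 7 comparison libraries r was 0.95 (exact permutation p = 0.00159) and rho 0.93. French bulldogs 11 and 7, the highest in DUSP1, also had the highest immediate-early scores, 2.25 and 1.23. They were also the libraries with the largest share of counts in a single gene, 33.4% and 33.0%, against 17.4% to 32.2% in the others, with 30.9% in French bulldog 6 and with 20.6% and 17.4% in French bulldogs 2 and 8, which had the lowest DUSP1 levels. French bulldog 4, at 32.2%, had 17.1 CPM of DUSP1. The part of this share in the relations of DUSP1 was not tested. Without French bulldogs 11 and 7 r was 0.63 (permutation p = 0.0166, adjusted p = 0.0744), so the call rests on these libraries. French bulldog 6, with the highest DUSP1, had a summed immediate-early level of 406 CPM, within the range of 200 to 3418 CPM of the other French bulldogs, and with it r over all 18 libraries was 0.65.

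CDC25C rose with 14 genes of mitosis, among them MKI67, TOP2A and the cyclin genes CCNA2 and CCNB2. Pearson's r was 0.79 (permutation p = 0.00028, adjusted p = 0.00154) and rho 0.83 (permutation p = 0.00018, adjusted p = 0.00198). It was 0.82 within French bulldogs (exact permutation p = 0.00493) and 0.83 within the comparison group (exact permutation p = 0.0312). Without the 2 units farthest from the median of CDC25C, French bulldog 11 and boxer 5, r was 0.81.

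CDC25B followed the same genes with r of 0.74 (permutation p = 0.00141, adjusted p = 0.00517) and rho of 0.78 (permutation p = 0.0006, adjusted p = 0.0033). Within French bulldogs r was 0.84 (exact permutation p = 0.00611), and within the comparison group it was 0.46 (exact permutation p = 0.270). The sum of French bulldogs 2 and 8 was highest in CDC25B and in the mitosis score, and French bulldog 11 was lowest in CDC25B. Without these r was 0.62 (adjusted permutation p = 0.0744) and rho 0.70 (adjusted permutation p = 0.0367), so the relation passed by rho and no longer by r.

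The other 8 relations were not called. DUSP6 and 10 ERK target genes, such as SPRY2 and ETV5, had r of 0.48 (permutation p = 0.0583, adjusted p = 0.160) and rho of 0.42, with r of 0.51 within French bulldogs and 0.48 within the comparison group. DUSP5 and the same genes had r of 0.23, and DUSP10 and the immediate-early genes 0.14. PTP4A1 had r of -0.05 with the immediate-early genes and 0.16 with the genes of mitosis. PTP4A2 had r of 0.41 and PTP4A3 of 0.43 with the genes of mitosis, and PTP4A3, which is known from vessel cells, had r of 0.13 with endothelial markers.

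**Figure D4:**
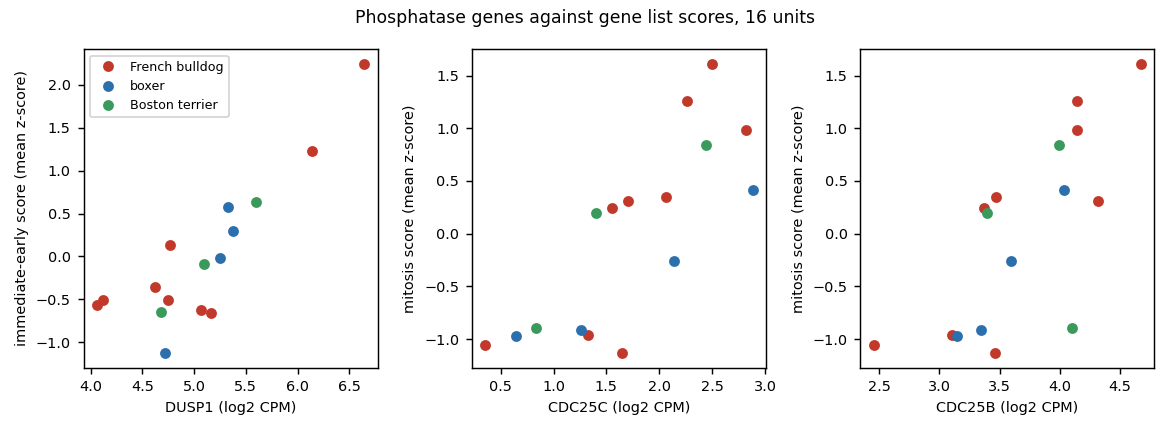
Log2 CPM of DUSP1, CDC25C and CDC25B (horizontal axes) against the mean z-score of the immediate-early genes or of the genes of mitosis (vertical axes), 1 point for each of 16 units colored by breed. DUSP1 reaches its 2 highest values together with the immediate-early score, in French bulldogs 11 and 7, and CDC25C follows the mitosis score with r of 0.82 within French bulldogs and 0.83 within the comparison libraries.

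Among themselves the 9 genes form 36 pairs, and 3 of the 36 were called by the same rule with adjustment over the 36. DUSP1 and DUSP5 were high together, with r of 0.82 (permutation p = 0.00013, adjusted p = 0.00468) and rho of 0.71 (permutation p = 0.00287, adjusted p = 0.0344). Within French bulldogs r was 0.86 (exact permutation p = 0.00254), and within the comparison group 0.71 (exact permutation p = 0.0853). Without French bulldogs 11 and 7, the highest in both, r was 0.54 (permutation p = 0.0452, adjusted p = 0.407).

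DUSP1 and CDC25B went in opposite directions, with r of -0.73 (permutation p = 0.00138, adjusted p = 0.0166) and rho of -0.68 (permutation p = 0.00501, adjusted p = 0.0451). This held within the 9 French bulldog units, with r of -0.92 (exact permutation p = 0.000135, adjusted p = 0.00486) and rho of -0.98. Within the comparison group r was 0.39 (exact permutation p = 0.377), and the difference between the groups was not tested. French bulldog 6, left out here, was the highest of all libraries in both genes, and with all 18 libraries r was -0.23. With each group set to its own mean r was -0.73 and rho -0.63 (adjusted permutation p = 0.0901), so the pair was no longer called, and DUSP5 and CDC25B were called in its place with r of -0.74. Without French bulldogs 11 and 7 r over the remaining units of both groups was -0.47 (permutation p = 0.0910), so the pooled call too rests on them. Whether the value within French bulldogs alone rests on them was not tested.

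CDC25B and CDC25C rose together, with r of 0.70 (permutation p = 0.00241, adjusted p = 0.0217) and rho of 0.73 (permutation p = 0.00207, adjusted p = 0.0344). It was 0.85 within French bulldogs (exact permutation p = 0.00449) and 0.54 within the comparison group (exact permutation p = 0.200), and 0.55 without French bulldog 11 and the sum of 2 and 8. PTP4A1 and PTP4A2 had r of 0.60 and rho of 0.76 over the 16 units and were not called. These values pool both groups and so draw on the breed difference for which PTP4A1 was chosen, and they are given as a description, as is the r of 0.70 over all 18 libraries. With each group set to its own mean r was 0.34 (adjusted permutation p = 0.564) and rho 0.54 (adjusted permutation p = 0.171). Within French bulldogs r was 0.40 and within the comparison group 0.34.

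**Figure D5:**
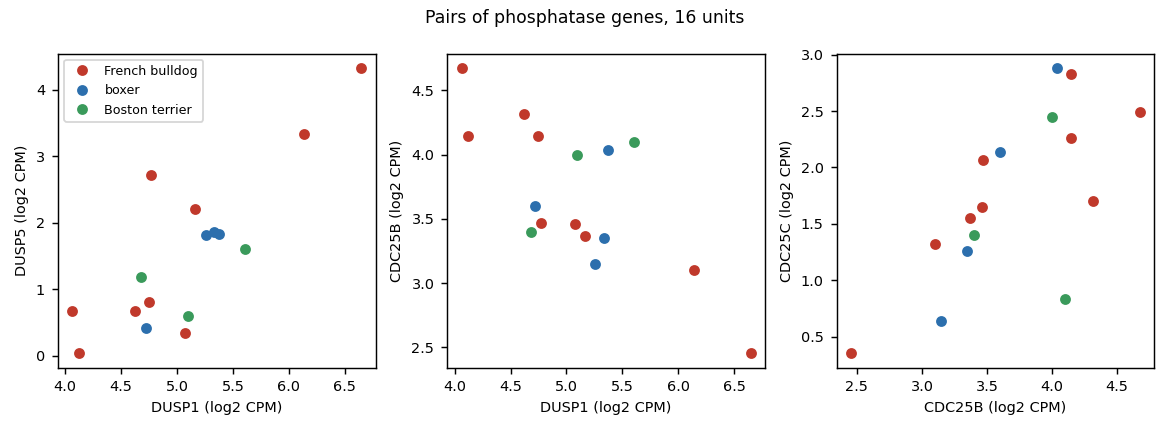
Log2 CPM of DUSP1 against DUSP5, DUSP1 against CDC25B and CDC25B against CDC25C, 1 point for each of 16 units colored by breed. French bulldogs 11 and 7 are at the far right of the DUSP1 axes, high in DUSP5 and low in CDC25B, and the inverse order of DUSP1 and CDC25B is seen in the French bulldog points (r of -0.92) and not in the comparison libraries (r of 0.39).

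The 3 genes whose levels ranked most like each phosphatase over the 16 units were taken from 11576 named genes by Spearman's rho, as a description without a test. For PTP4A1 these were C1GALT1C1, a chaperone of O-glycosylation, CMPK1, a pyrimidine nucleotide kinase, and EEA1, an early endosome tether, with rho of 0.91, 0.91 and 0.89. The ranking pools both groups, between which PTP4A1 differs, and with each group set to its own mean rho was 0.81, 0.73 and 0.71, and within the comparison group 0.54, 0.68 and 0.71. For PTP4A2 they were KTN1, ADAM10 and HIF1A, the last a transcription factor of the response to low oxygen, with rho of 0.89, 0.88 and 0.86. With each group set to its own mean rho for PTP4A2 was 0.78, 0.65 and 0.74. It was 0.77, 0.83 and 0.67 within French bulldogs and 0.93, 0.50 and 0.93 within the comparison group. For PTP4A3 they were DOHH, ID3 and SIRT6, with rho of 0.87, 0.81 and 0.81.

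DUSP1 ranked most like ZFP36, JUNB and CEBPB, with rho of 0.94, 0.93 and 0.91, and the first pair are also in the immediate-early list. DUSP5 ranked most like CCN1, ZFP36 and IL1A, with rho of 0.86, 0.83 and 0.79. ZFP36, which destabilises messenger RNAs, was thus near both. For DUSP6 the genes included PIK3R2 and PPFIBP1, each with rho of 0.86, and for DUSP10 they were MN1, ZMYND11 and SHOC2, the last a scaffold of the ERK pathway, with rho of 0.86, 0.86 and 0.85.

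CDC25B ranked most like NUP205, PDE6D and ANKS1B, with rho of 0.90, 0.87 and 0.87. CDC25C ranked most like DSN1 of the kinetochore, MCM10 of DNA replication and CDC20 of the anaphase-promoting complex, with rho of 0.91, 0.90 and 0.89.

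Genes that work with these phosphatases were compared between French bulldogs and the comparison group in the same edgeR fit, and in each list 0 were past the threshold after adjustment. In the counts that follow, passed means an unadjusted p-value under 0.05, and over all genes tested 7.02% passed with a higher and 3.55% with a lower level in French bulldogs. By limma-voom the balance was the other way, with 3.89% higher and 5.42% lower, and the median log2 fold change over all genes was -0.06 in place of 0.04, so limma-voom counts are to be read against these shares. The 4 CNNM genes, partners of the PTP4A phosphatases, all had log2 fold changes below 0, with a median of -0.46, and CNNM2 passed, at 19.5 ± 6.48 CPM (SD, n = 11) against 28.4 ± 2.58 CPM (SD, n = 7) and a log2 fold change of -0.54 (SE 0.20, edgeR adjusted p = 0.433). CNNM1, CNNM4 and CNNM3 had log2 fold changes of -0.63, -0.39 and -0.19. Without French bulldog 6 the median was -0.48 and CNNM2 again passed.

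Of 12 other dual-specificity, CDC25 and CDC14 phosphatases tested, CDC14A passed, with a log2 fold change of -0.37 (SE 0.14, edgeR adjusted p = 0.433), and the median was 0.10, or -0.09 by limma-voom, when 2 of the 12 passed with a lower level. DUSP16, DUSP22 and DUSP9 had log2 fold changes of 0.57, -0.38 and -0.82 and did not pass, and DUSP9 had 0 counts in French bulldog 6. DUSP19 had 0 counts in all 18 libraries, and 3 counts is the upper limit that this allows. Of the 8 MAP kinase genes of the list that were tested 0 passed, with a median of -0.00, or 0.08 without French bulldog 6. MAPK14, the gene of p38 alpha, was at 0.30, MAPK10 at -0.26 and MAPK12 at -0.66. Without French bulldog 6 MAPK14, MAPK10 and MAPK12 were at 0.22, -0.09 and -0.49. MAPK6, which the study reported as overexpressed in French bulldogs, is not described here.

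Of 10 ERK target genes CCND1, the gene of cyclin D1, passed, with 169 ± 318 CPM (SD, n = 11) against 46.2 ± 14.5 CPM (SD, n = 7) and a log2 fold change of 1.87 (SE 0.77, edgeR adjusted p = 0.433), and the median of the list was -0.08, or 0.07 without French bulldog 6, when CCND1 again passed. By limma-voom 0 of the 10 passed, 7 were below 0 and the median was -0.31. SPRED1, ETV1 and SPRED2 had log2 fold changes of 0.21, -0.29 and -0.20, and of 0.21, -0.18 and -0.23 without French bulldog 6. All 10 immediate-early genes had log2 fold changes above 0, with a median of 0.49, and 0 of them passed. By limma-voom 6 of the 10 were below 0, with a median of -0.06. Of the 9 French bulldog units 6 had an immediate-early score below 0, as did 4 of the 7 comparison libraries, and the median summed level was 411 CPM in French bulldogs without number 6 and 527 CPM in the comparison group. ATF3, JUN, FOS and FOSB had 0.84, 0.44, 1.22 and 1.40, and FOS was at 97.3 ± 204 CPM (SD, n = 11) against 41.7 ± 28.6 CPM (SD, n = 7).

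All 14 genes of mitosis had log2 fold changes above 0, with a median of 1.00, and 7 of the 14 passed. CCNB2 had 1.69, TOP2A 1.34, KIF11 1.42 and BUB1 1.60, and the lowest edgeR adjusted p of the list was 0.433. French bulldog 6 had a summed level of 1450 CPM, against 107 to 1449 CPM in the other French bulldogs and 141 to 565 CPM in the comparison group, and without it 2 of the 14 passed, CCNB2 and BUB1, and the median was 0.87. With French bulldogs 2 and 8, the highest in the mitosis score, summed as 1, 2 of the 14 passed and the median was 0.89, and by limma-voom 0 passed with a median of 0.76. Of 6 genes that act with CDC25 on cyclin-dependent kinases 0 passed, with a median of 0.39. WEE1, the kinase that opposes CDC25, had 0.59, CDK1 0.95, CHEK1 0.67 and PLK1 0.18. Without French bulldog 6 WEE1 had 0.56, CDK1 0.74, CHEK1 0.62 and PLK1 0.01, and the median of the list was 0.36.

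Markers of the cell types that the tissue could hold were set beside these values. Summed levels of 7 macrophage and microglia markers were 31.4 to 187 CPM in the 10 French bulldogs without number 6, 4508 CPM in French bulldog 6 and 57.2 to 110 CPM in the comparison group, where 3 of the 7 passed with all libraries and 0 without French bulldog 6. The 8 oligodendrocyte lineage markers summed to 2226 to 8339, 61.2 and 2163 to 3876 CPM in the same order, with OLIG2 and NKX2-2 at 0 in French bulldog 6, and their median log2 fold change was 0.08. Without French bulldog 6 it was 0.24, and OLIG2 passed with a lower level in French bulldogs (log2 fold change -0.38, edgeR adjusted p = 0.442). The 6 T cell markers summed to 2.16 to 13.8, 135 and 2.57 to 45.5 CPM, and of the 2 that could be tested CD2 passed with a higher level in French bulldogs, with a log2 fold change of 2.03 (SE 0.77, edgeR adjusted p = 0.433), and CD4 had -0.79. Without French bulldog 6 CD2 had 1.03 and did not pass, and CD4 had -1.72 and passed with a lower level. Neuron, astrocyte and endothelial markers had median log2 fold changes of -0.05, -0.07 and -0.16, and 0 of their 7, 5 and 5 genes passed. Without French bulldog 6 the medians were 0.13, 0.11 and -0.06, so the sign of the first pair turned, and again 0 passed. By limma-voom with all libraries the medians were -0.92, -0.74 and -0.37, with all 7, 5 and 5 genes below 0, and that of the oligodendrocyte lineage markers was -0.84, with all 8 below 0. That of the macrophage markers was 0.30, and 0 genes of these lists or of the T cell markers passed by limma-voom. In French bulldog 6, where the macrophage markers were highest, PTP4A1, PTP4A2, DUSP1, CDC25B and CDC25C were also at the highest level of the 18 libraries and PTP4A3 at the lowest, and the part of cell makeup in these levels was not tested. Between boxers and Boston terriers 0 genes of any of these lists had an unadjusted p-value under 0.05 by edgeR.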

How the data were processed

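Total RNA was extracted from formalin-fixed, paraffin-embedded HGO tissue and sequenced after removal of ribosomal RNA. The authors trimmed reads with Trimmomatic 0.33, mapped them to the dog genome with HISAT2 2.1.0 and counted them per gene with featureCounts, and they deposited raw counts without normalization. Strand and multi-mapping settings are not given in the sources used here. Groups came from the sample labels. Genes, lists and tests were chosen with earlier results of these data known.

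The 11 French bulldog libraries, of which 2 and 8 may come from 1 dog, were set against the 7 comparison libraries with edgeR 4.0.16 in R 4.3.3. Low counts were removed with filterByExpr (groups as the design), libraries were scaled by TMM, and genes were tested by the quasi-likelihood F test, robust and without covariates, with Benjamini-Hochberg adjustment over the 16495 genes left and a threshold of 0.05. A standard error is the absolute log2 fold change over the root of F. Boxers were compared with Boston terriers in a fit of all 3 breeds (17934 genes). Correlations used log2 CPM (prior count 2) and permutations over libraries (scipy 1.17.1). With DUSP4 not analysed, 11 relations and 36 pairs remained of those planned. Genes named were the phosphatases, up to 4 genes of each list with the smallest p, the 3 genes most alike in rank for each phosphatase, list members given as examples of a list, and markers of French bulldog 6, chosen after their values were seen. Alternatives were other normalizations and filters, limma-voom (limma 3.58.1), the DESeq2 Wald test (DESeq2 1.42.0), each library left out, each breed or library number series alone, French bulldogs 2 and 8 summed, a block over replicate numbers (for the gene lists, chosen after seeing the data, those without French bulldog 6, with 2 and 8 summed, other scalings and limma-voom) and removal of 1890 small RNAs by symbol. Gene overlaps come from RefSeq (UU_Cfam_GSD_1.0), an assembly other than that of the counts, so positions are left out. No sequence was used here. Results for some genes that these rules name are not reported here. The fits and permutation tests were tested on simulated data.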

Additional observations from a re-analysis of the deposited data

Results flagged for a closer look

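Levels of the 9 genes were checked for a single library far from the rest of its group. The check ran in the 4 boxers and in the 7 comparison libraries, 18 groups of values in all. The rule is set to mark about 1 in 20 groups of normally distributed values, which was not tested for these levels. The boxers are also among the 7, so the groups are not independent. PTP4A1 in boxer 3 was at 40.9 CPM, and the other boxers lay between 23.0 and 25.4 CPM. DUSP5 in boxer 4 was at 1.14 CPM, and the other boxers lay between 3.29 and 3.41 CPM. DUSP10 in boxer 4 was at 15.1 CPM, and the other 6 comparison libraries lay between 5.91 and 9.78 CPM.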

How the results depend on the processing

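Under every alternative run, 0 of the 8 genes other than PTP4A1 had an adjusted p-value under 0.05 in French bulldogs against the comparison group, with a lowest adjusted p between 0.232 and 1.00 over 32 alternatives, and 0 of the 9 had one between boxers and Boston terriers (lowest adjusted p 0.795 to 1 over 13). The log2 fold change of PTP4A1 stayed between 0.80 and 1.02 with each library left out. Over all genes the number with an adjusted p-value under 0.05 was 1 by edgeR, 58 by DESeq2, 2 by limma-voom and with upper quartile normalization, 3 without French bulldog 6, 0 with French bulldogs 2 and 8 summed or with at least 10 counts in every library, and 0 to 7 with each library left out. PTP4A3 and DUSP5 have no value with at least 10 counts in every library.

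Signs turned for DUSP6 against boxers alone (0.13) and against the libraries S18 to S21 (0.091), and against the libraries S1 to S3 for CDC25B (-0.0188) and CDC25C (-0.17). Between boxers and Boston terriers DUSP1 turned to -0.00257 in the 7 libraries alone and -0.0120 with no filter. With each library left out, the log2 fold change between boxers and Boston terriers ranged from 0.10 to 0.55 for PTP4A1, from -0.53 to 0.12 for PTP4A3, from -0.18 to 0.28 for DUSP1, from -0.046 to 0.43 for DUSP10 and from -0.26 to 0.88 for CDC25C. The number of relations called fell from 3 to 1, and of pairs from 3 to 0, without the 2 units farthest from the median. Pairs called also changed elsewhere: DUSP1 with CDC25B was lost over all 18 libraries and with each group set to its own mean, PTP4A1 with PTP4A2 was gained over 17 and 18 libraries, where both groups are pooled and the breed difference for which PTP4A1 was chosen enters, and DUSP5 with CDC25B was gained with each group set to its own mean. Pearson's r turned for DUSP5 with ERK targets (-0.091) and PTP4A3 with mitosis (-0.039) over all 18 libraries, for DUSP10 (-0.29) and PTP4A1 (0.041) with immediate-early genes without the 2 farthest units, and for PTP4A1 with mitosis (-0.035) with each group set to its own mean. The cause of these changes was not tested.

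French bulldogs and comparison libraries share the replicate numbers 1 to 7, but same-numbered libraries did not deviate together (correlations from -0.50 to 0.21), and 2 of the 7 French bulldogs were closest to their own number, so the numbers do not pair the libraries. With a replicate block 0 of the 8 genes passed, and 0 genes in all passed, against 5 without the block in the same 14 libraries. With the block PTP4A1 had a log2 fold change of 0.87. The values of DUSP5, DUSP1, DUSP10 and PTP4A3 were 0.27, 0.05, 0.15 and -0.64 with it, against 0.93, 0.75, 0.26 and -0.35 without it in the same libraries. No paired analysis was possible for boxers against Boston terriers because they share no number.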
